A study of Mus musculus with 2 samples.

Results

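S100 proteins are small calcium sensors, and this account follows the RNA of 9 of them across the cells sorted from 2 mouse breast tumours. The members were taken by gene symbol from the deposited gene table, and were chosen with earlier results of these data known. The list was S100a1, S100a4, S100a6, S100a8, S100a9, S100a10, S100a11, S100a13 and S100a16, 9 of 31054 genes. They accounted for 90610 of 19760874 UMIs (unique molecular identifiers, each standing for 1 captured RNA molecule) in 1 library and for 34310 of 4293854 in the other.

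Each library came from the tumour of inAd-Chaser-mTmG mice on the C57BL/6 background, which carry Adiponectin-rtTA, TRE-Cre and the Rosa26R mT/mG reporter. Before doxycycline every cell of these mice carries membrane tdTomato. A doxycycline pulse switches adipocytes, the cells in which the Adiponectin promoter is active, to membrane EGFP, and their descendants keep it. Cells of both libraries were isolated as tumour fibroblasts and sorted as EGFP-positive and tdTomato-negative. One library is labelled as a Met-1 tumour, Met-1 being a mouse mammary tumour line grown here as a transplant, whereas the series' design text speaks of implanted EO771 cells; the sample label is followed. The other library is labelled as a PyMT tumour, which arises in the mammary gland of mice carrying the polyoma middle T oncogene. Neither the age of the mice nor the number of animals behind a library is given in the sources used here. With 1 library per tumour, nothing that differs between the tumours can be set against a spread between animals, no test was made, and every interval in parentheses is a 95% interval that covers counting error only.

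An S100 protein binds calcium, changes shape and then docks on a partner protein. Most work inside the cell, where S100a10 and S100a11 bind annexins at membranes, S100a4 binds non-muscle myosin and S100a6 binds the ubiquitin ligase adaptor CacyBP. S100a8 and S100a9 pair into calprotectin, which fills the cytosol of neutrophils, withholds metal ions from microbes and, once released, acts on the receptors TLR4 and RAGE. S100a4 is also known as fibroblast-specific protein, and has been used as a fibroblast marker although immune cells make it too.

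After filtering, 2112 of 2451 Met-1 barcodes and 589 of 619 PyMT barcodes passed, the median cell holding 7684 and 3470 UMIs, and the libraries shared 0 barcodes. Cells were classed by the UMIs of marker genes, none of them an S100 gene. The Met-1 library held 35 neutrophils, 25 monocytes, 821 macrophages, 688 lymphocytes, 207 fibroblasts, 34 luminal (epithelial) cells and 93 mural cells, which wrap small vessels. The PyMT library held 166 neutrophils, 2 monocytes, 188 macrophages, 74 lymphocytes, 11 fibroblasts and 82 luminal cells. Tumour cells were not told apart from normal milk-duct cells, so the luminal class may hold either. Adipoq, which encodes adiponectin, had 0 UMIs in each of these classes in both libraries, and 1 Met-1 barcode passed the adipocyte gate. Levels are CPM (counts per 1e6 UMIs), a gene's UMIs in all cells of a class divided by all UMIs of that class; a UMI stands for 1 molecule whatever the gene's length, so levels are not divided by length.

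All 9 genes lie on mouse chromosome 3 in the GRCm38 annotation (the assembly that mm10 stands for). Of these, 7 sit within 185 kb: S100a1 (chr3:90511034-90514392), S100a13 (chr3:90514435-90524581), S100a16 (chr3:90537254-90543151), S100a4 (chr3:90603771-90606045), S100a6 (chr3:90612882-90624181), S100a8 (chr3:90668978-90670035) and S100a9 (chr3:90692632-90695721). S100a11 (chr3:93520488-93526287) and S100a10 (chr3:93555080-93564643) lie apart, so that the 9 genes span 3054 kb. S100a1 and S100a9 are on the minus strand and the others on the plus strand. The S100a4 gene overlaps Gm42674 on the same strand, a row that had 0 UMIs in both libraries. S100a1 and S100a13 start back to back, and their promoter windows, taken from 250 bases before to 50 after the start, share 204 bases.

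The promoters of S100a8 and S100a9, the pair that neutrophils held at the highest level, and of S100a4, which was not detected in neutrophils, are shown from 80 bases before to 20 after the RefSeq start (GRCm38.p6, 5′ to 3′ on the gene's own strand), with the letters TATAAA of the TATA box in capitals.
S100a8, chr3:90668991-90669090, plus strand: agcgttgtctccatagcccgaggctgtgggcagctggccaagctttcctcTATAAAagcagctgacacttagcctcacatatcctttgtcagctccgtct
S100a9, chr3:90695702-90695801, minus strand: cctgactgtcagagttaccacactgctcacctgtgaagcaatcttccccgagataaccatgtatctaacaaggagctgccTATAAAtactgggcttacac
S100a4, chr3:90603690-90603789, plus strand: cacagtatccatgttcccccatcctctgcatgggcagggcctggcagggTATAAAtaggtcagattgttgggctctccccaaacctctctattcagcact

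RefSeq windows were found for 8 of the 9 members, 9 windows in all; S100a10 had none. TATAAA, searched on both strands, was in 3 of the 9 member windows and in 13.6% of the 32851 windows of all genes. It begins 31 bases before the start of S100a4 and 30 before that of S100a8, but at the annotated start itself in S100a9. The C/EBP motif TTGCNNAA was in 1 member window, that of S100a9, 236 bases before the start, against 10.8% of all windows. The AP-1 motif TGANTCA was in the windows of S100a16 and S100a11, against 7.81% of all windows, and occurred in S100a11 at 136 and at 38 bases before the start. The ETS motif GAGGAAG was in the windows of S100a4 and S100a8, against 13.6% of all windows. These are matches of letters in a window, not sites shown to be used.

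A gene was counted as marking a class when its CPM, with 10 added, was at least 2-fold that of each other class with at least 20 cells. In the Met-1 library 6 classes were compared, and neutrophils were marked by 3 of the 9 members (S100a8, S100a9 and S100a11), against 3.13% of the 11395 genes with at least 50 UMIs. S100a4 alone marked monocytes, where 0.614% of genes did so, and S100a1 alone marked luminal cells, where 3.39% did. None of the 9 marked macrophages (1.95% of genes), lymphocytes (2.35%) or fibroblasts (8.58%). In the PyMT library 4 classes had enough cells. S100a8, S100a9 and S100a11 again marked neutrophils (5.86% of 6967 genes), S100a1 and S100a16 marked luminal cells (10%), S100a13 marked lymphocytes (3.04%), and none marked macrophages (4.25%). The 11 PyMT fibroblasts did not enter. The S100a13 call was also lost by the mean of per-cell CPM (1.45-fold), with 50 CPM added (1.97-fold) and when T, B and natural killer cells were taken apart, where S100a13 marked the T cells. When the fibroblasts were let in, a choice made after seeing the data, 4 of these 6 PyMT calls were lost, leaving those of S100a8 and S100a9 in neutrophils, and S100a6, S100a10, S100a13 and S100a16 marked the fibroblasts.

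**Figure D1:**
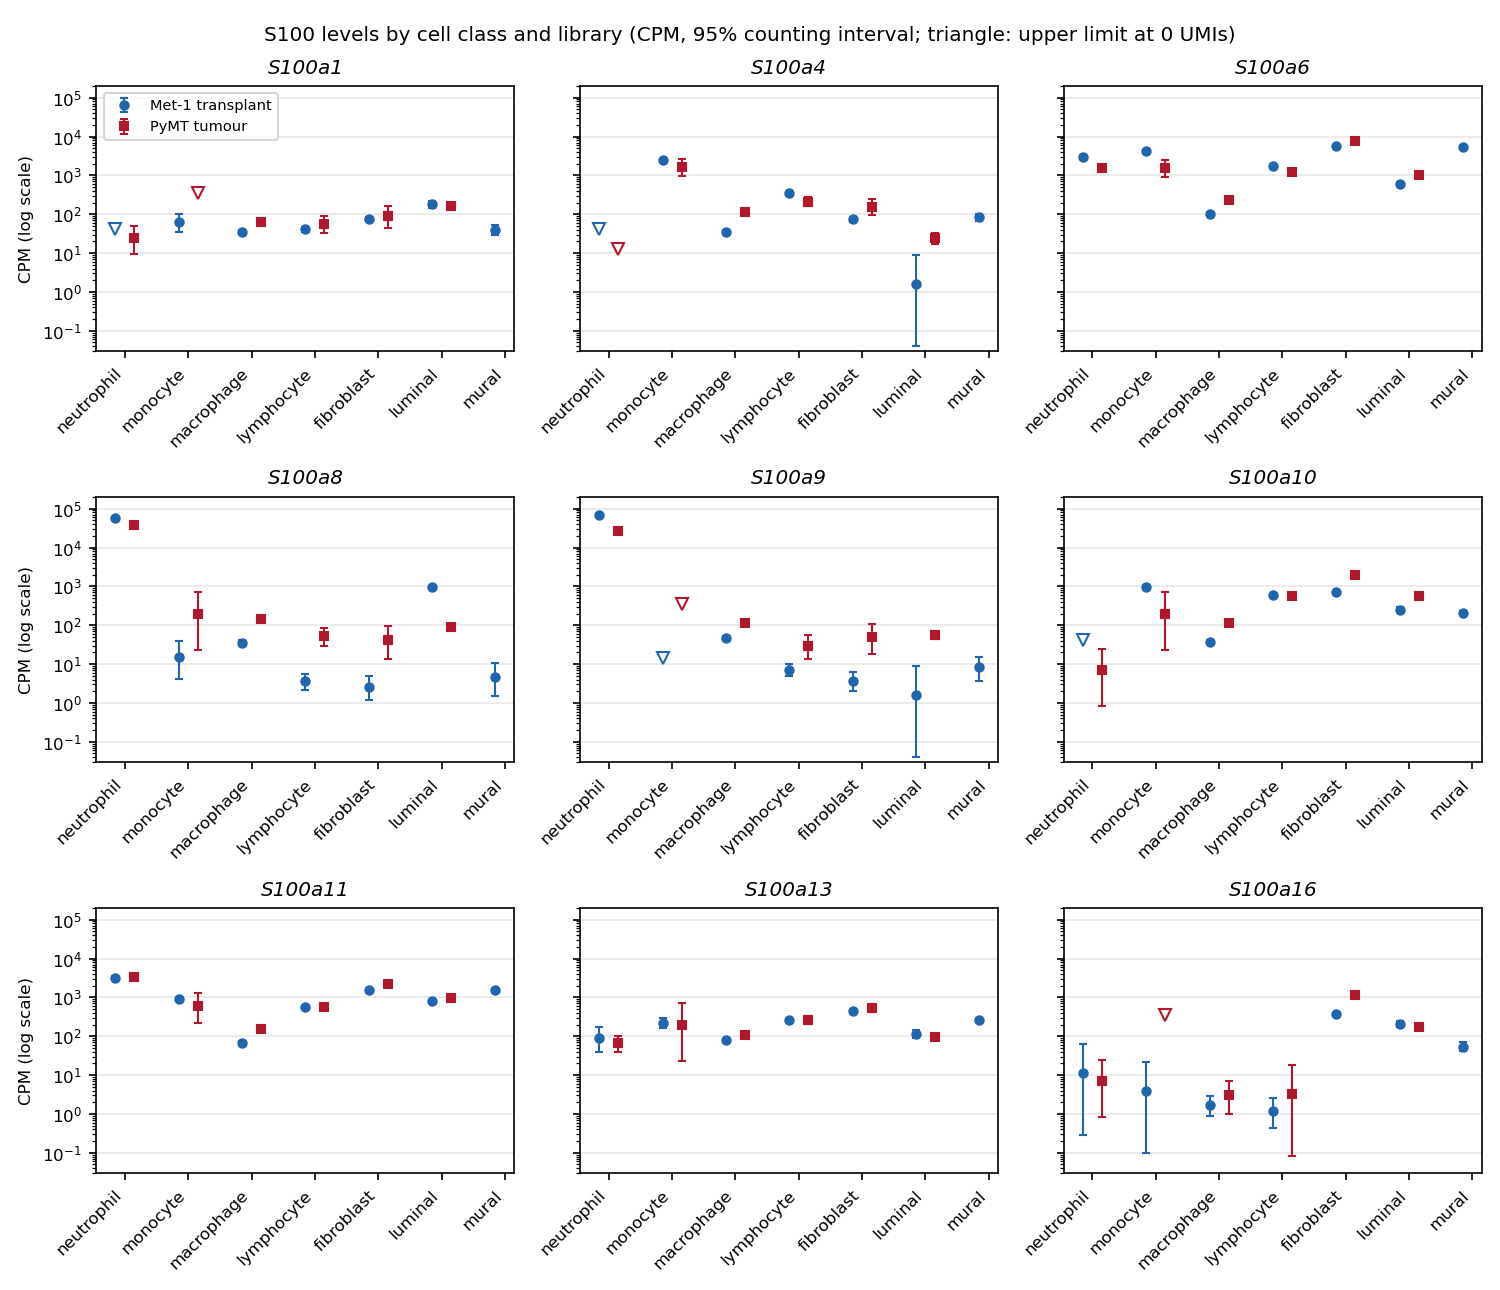
Level of each member (CPM, log axis) in 7 cell classes of the Met-1 transplant (blue circles) and the PyMT tumour (red squares), with 95% counting intervals; open triangles give the upper limit where a class had 0 UMIs, and no mural cells were found in the PyMT library. S100a8 and S100a9 stand between 26737 and 67843 CPM in neutrophils, S100a4 peaks in monocytes and S100a16 in fibroblasts, and macrophages hold the least S100a6 and S100a11 of the classes drawn.

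Calprotectin RNA dominated the neutrophils. S100a8 (57167 CPM, 55607 to 58760) and S100a9 (67843 CPM, 66142 to 69576) together made up 12.5% of all UMIs of Met-1 neutrophils. In PyMT neutrophils the level of S100a8 was 37335 CPM (36636 to 38044) and that of S100a9 26737 CPM (26146 to 27338), 6.41% of their UMIs. Neutrophils held 88.0% of all S100a8 and S100a9 UMIs of the Met-1 library while being 1.66% of its kept cells, and 80.4% in the PyMT library, of which they were 28.2%.

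The share varied widely from cell to cell. In Met-1 neutrophils the 2 genes together took between 0.820% and 33.6% of a cell's UMIs, with a median of 9.28%, and all 35 cells had both. In PyMT neutrophils the range was 0 to 26.9% with a median of 3.19%, and 160 of 166 cells had at least 1 UMI of either. The balance within the pair differed too: S100a9 over S100a8 was 1.19 (1.14 to 1.23) in Met-1 and 0.716 (0.696 to 0.737) in PyMT neutrophils. More S100a9 than S100a8 was found in 27 of 35 Met-1 cells and in 61 of 166 PyMT cells.

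Other neutrophil genes varied along with the pair. Cells were split at the median share of S100a8 and S100a9 in each library, a split chosen after seeing the data. In Met-1, Retnlg, a small protein secreted by neutrophils, was at 8489 CPM in the 18 cells at or above the median and at 78.5 CPM in the 17 below it. Retnlg in PyMT neutrophils was at 6282 CPM in 83 cells and at 562 CPM in the other 83. S100a6 followed the same order, at 4707 against 707 CPM in Met-1 and at 2400 against 712 CPM in PyMT, as did S100a11, at 4412 against 1518 and at 4521 against 2015 CPM. The 6 gate genes varied less, apart from Mmp9 in Met-1. Every cell had been classed as a neutrophil by these 6 genes, so their smaller spread can follow in part from that choice. Mmp9, a collagen-degrading protease, was at 611 against 157 CPM in Met-1 (31 and 6 UMIs). In PyMT it was at 452 against 270.5 CPM, with overlapping intervals (351 to 573 and 191 to 371). Hdc, the histamine-forming enzyme, was at 2226 against 2539 CPM in Met-1 and at 2373 against 1836.5 CPM in PyMT. Il1r2, the decoy receptor for interleukin-1, was at 1674 against 1727 and at 3138 against 3552 CPM. Csf3r, the receptor for G-CSF, was at 2048 against 1308.5 and at 990.5 against 826 CPM, and the intervals of Cxcr2 and of Trem1 overlapped between richer and poorer cells in both libraries. Median depth was 3027 UMIs in the richer and 2458 in the poorer Met-1 cells, and 1711 and 1535 in PyMT.

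S100a11, an annexin partner, was the third member to mark neutrophils. Met-1 neutrophils held it at 3169 CPM (2810.0 to 3561), PyMT neutrophils at 3310.4 CPM (3105 to 3526). Its next highest classes were mural cells and fibroblasts in Met-1 (1530 and 1510 CPM, ratio 1.01, 0.958 to 1.07). The Met-1 call was close to the 2-fold line at 2.09-fold, and was 1.98-fold without the top cell of each class. S100a6 was high in neutrophils as well, with a Met-1 level of 2989 CPM (2641 to 3371) and a PyMT level of 1585 CPM (1443 to 1736). It was unevenly held: 8 of the 35 Met-1 neutrophils had 210 of their 266 UMIs.

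S100a4 was not detected in neutrophils, with 0 UMIs in 35 Met-1 and 166 PyMT cells. Taking 3 counts over the class as the limit, its level was under 33.7 CPM in the Met-1 cells and under 10.3 CPM in the PyMT cells. Met-1 monocytes, at 2472 CPM (2284 to 2671), were thus at least 73.3-fold higher. Lymphocytes were at least 10.7-fold higher by the Met-1 values and at least 20.6-fold higher by the PyMT values. S100a10 was at 0 UMIs in Met-1 neutrophils as well and at 2 UMIs (6.88 CPM, 0.833 to 24.8) in PyMT neutrophils. The calprotectin pair and these 2 members differed in their order across classes. Over 14 class-by-library profiles, Pearson's r with S100a8 and S100a9 was -0.82 and -0.87 for S100a10 and -0.62 and -0.52 for S100a4, and 0.91 between S100a8 and S100a9, as a description of profiles that share libraries and differ in depth.

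Monocytes carried S100a4 in all 25 Met-1 cells. S100a4 in lymphocytes came next in that library at 360 CPM, the monocytes being 6.86-fold (6.26 to 7.51) higher. S100a6 (4156 CPM, 3911 to 4412), S100a10 (958 CPM, 843 to 1086) and S100a11 (916 CPM, 803 to 1040.3) were high in the same cells, each more than 10-fold above macrophages. Over macrophages the ratio was 72.1 (62.1 to 84.0) for S100a4, 40.1 (36.5 to 44.1) for S100a6, 25.8 (21.6 to 30.8) for S100a10 and 13.4 (11.4 to 15.7) for S100a11. S100a8 and S100a9, which blood monocytes of the classical kind can carry, had 4 and 0 UMIs in the 25 Met-1 monocytes (15.5 CPM, and at most 14.3 CPM). The 2 PyMT monocytes had 17 UMIs of S100a4 (1659 CPM, 966 to 2656) and 16 of S100a6.

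Along the mononuclear phagocytes these 4 members were lowest where C1q was highest. C1qa, C1qb and C1qc encode the complement component that tissue macrophages make, and cells were binned by its UMIs per 10000; the C1q level also set monocytes apart from macrophages, while S100 genes did not. In Met-1, S100a4 stood at 2472 CPM in the 25 cells with at most 2, 1795 in 6 cells with 2 to 10, 259 in 11 cells with 10 to 30, 308 in 38 cells with 30 to 60, 86.0 in 131 cells with 60 to 100 and 10.7 in the 641 cells over 100. From the lowest to the highest bin, 25, 3, 2, 4, 7 and 26 cells had a UMI of S100a4, so the middle levels rest on few cells. Median depth was 1479 UMIs in the bin from 10 to 30 and 7606 over 100. S100a6 went from 4156 to 54.8 CPM between the lowest and the highest of these bins, S100a10 from 958 to 24.2 and S100a11 from 916 to 58.0. In PyMT, where the lower bins held few cells, S100a4 went from 1384 CPM in 3 cells with at most 2 to 1242 in 4 cells with 2 to 10, 1471 in 5 cells with 30 to 60, 179 in 17 cells with 60 to 100 and 34.3 in 165 cells over 100. In PyMT the other 3 had no steady order below 60: in the bins at most 2, 2 to 10 and 30 to 60, S100a6 was at 1246, 1536 and 1306 CPM, S100a10 at 138, 882 and 866 CPM and S100a11 at 623, 719 and 302.5 CPM. Over 100 they were at 144, 53.6 and 106 CPM. S100a13 and S100a1 fell less in Met-1, and were lowest in the bin from 60 to 100 rather than in the highest. From the lowest to the highest bin S100a13 was at 221, 98.6, 81.0, 75.9, 68.1 and 82.5 CPM. S100a1 was at 62.1, 39.45, 32.4, 26.8, 22.4 and 38.0 CPM.

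**Figure D2:**
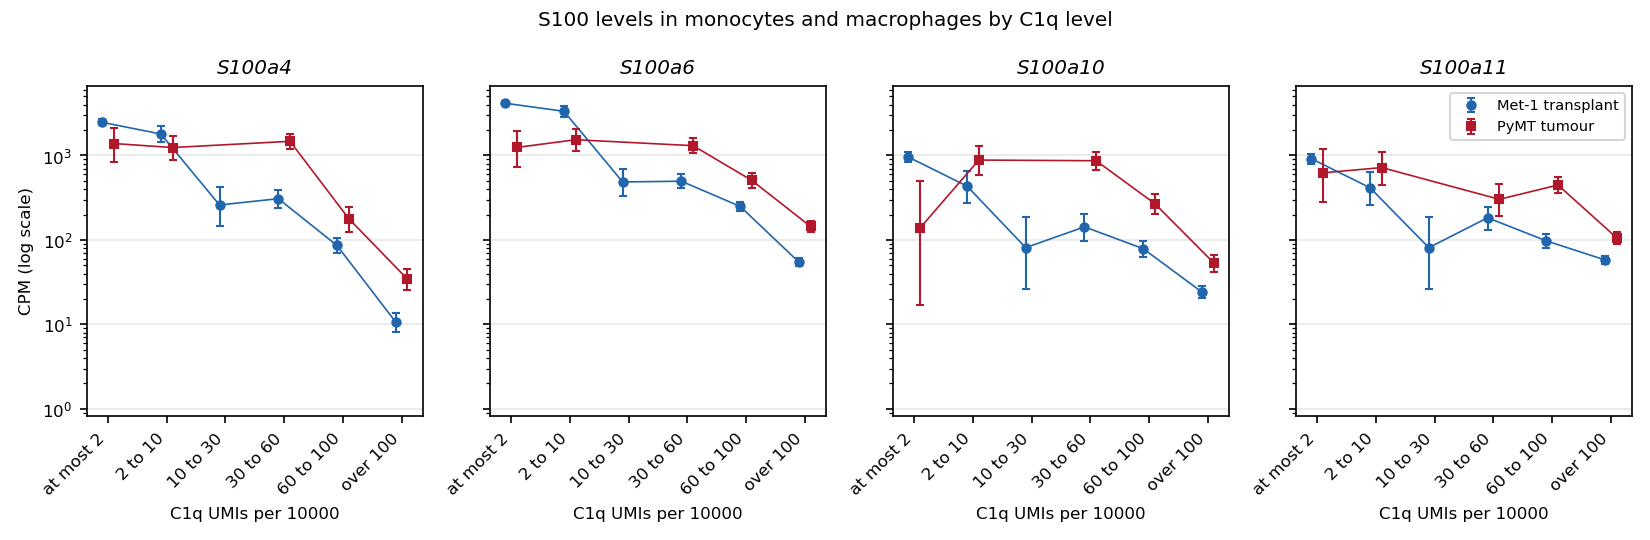
Level of S100a4, S100a6, S100a10 and S100a11 (CPM, log axis, 95% counting intervals) in monocytes and macrophages binned by C1q UMIs per 10000, in Met-1 (blue circles) and PyMT (red squares); the PyMT bin from 10 to 30 held 1 cell and is left out. S100a4 in Met-1 goes from 2472 CPM in the lowest bin to 10.7 CPM in the highest, and all 4 genes are lowest where C1q is over 100.

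Macrophages had the lowest S100 content of the compared classes in both libraries, the 9 members together making up 0.0442% of their UMIs in Met-1 and 0.105% in PyMT, against 0.887% in Met-1 fibroblasts. S100a4 in macrophages rested on few cells. It had a UMI in 4.75% of Met-1 macrophages, close to the 4.55% of Met-1 B cells (median depths 7572 and 3488 UMIs), and 7 cells held 199 of its 241 UMIs. In PyMT, 6 macrophages held 154 of 191.

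Lymphocytes differed among themselves. B cells held little S100a6 (102 CPM, 82.0 to 125) and S100a4 (12.3 CPM, 6.15 to 22.0) in Met-1, and S100a1 had 0 UMIs in 242 B cells. Natural killer cells had the most S100a6 of the lymphocytes (2997 CPM, 2899.5 to 3097), 1.81-fold (1.73 to 1.89) that of T cells, whereas S100a4 was level between them (416 and 425 CPM, ratio 0.979, 0.878 to 1.09). S100a10 was in B cells too, at 259 CPM against 596 CPM in T cells and 853 CPM in natural killer cells.

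Within the T cells the same genes set apart cells with naive markers. The 95 Met-1 T cells with naive markers (Lef1, Ccr7 and Dapl1, genes of T cells that have not met antigen) had S100a4 at 30.1 CPM and S100a6 at 83.6 CPM. The 70 with effector or memory markers (Cxcr6, Il2rb, Ccl5 and Icos) had S100a4 at 558 CPM, 18.5-fold higher (11.5 to 31.7), and S100a6 at 1932 CPM, 23.1-fold higher (17.4 to 31.3). The size of the S100a4 ratio rests on few cells, since 1 cell held 15 of the 18 UMIs in the cells with naive markers; without Ccr7 among the markers, a choice made after seeing the data, 3 UMIs were left in 74 cells and the ratio was 80.3 (27.2 to 392), and without Lef1 it was 15.6 (9.58 to 27.1). The same change of markers took the S100a6 ratio to 34.8 (23.3 to 54.6) and 21.9 (16.1 to 30.6). In the 120 cells with gamma-delta receptor chains S100a4 was at 556 CPM, level with the effector cells (ratio 0.998, 0.873 to 1.14), while S100a11 at 632 CPM was 1.84-fold theirs (1.57 to 2.17). S100a10, S100a11 and S100a13 also stood lower in the cells with naive markers, by ratios of effector over naive cells of 2.3 (1.89 to 2.80), 3.25 (2.44 to 4.40) and 3.33 (2.46 to 4.58). In PyMT the 5 cells with naive markers had 0 UMIs of S100a4 and S100a6, and the 17 with effector markers had 37 and 95. The rules that cut these subsets were set after the files were opened.

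Fibroblasts were led by S100a6. Its level was 5678 CPM (5599 to 5758) in the Met-1 fibroblasts, 7907 CPM (7418 to 8419) in the 11 PyMT cells. S100a6 did not mark them in Met-1, because monocytes there reached 4156 CPM; mural cells, outside the 6 compared classes, reached 5441. S100a16, a widely expressed member whose partners are less well defined, was the one most nearly restricted to fibroblasts and luminal cells, with 377 CPM (356 to 398) in the Met-1 and 1136 CPM (956 to 1341) in the PyMT fibroblasts, 204 and 174 CPM in luminal cells, and under 12 CPM in each immune class with at least 20 cells. S100a13, a carrier for non-classically secreted FGF1, was highest in Met-1 fibroblasts (448 CPM, 426 to 471), 1.69-fold (1.49 to 1.92) mural cells. S100a4, despite its other name, was at 73.5 CPM (64.7 to 83.1) in Met-1 fibroblasts, level with mural cells (83.3 CPM, ratio of mural cells over fibroblasts 1.13, 0.882 to 1.45) and below the lymphocytes and monocytes. The 11 PyMT fibroblasts held it at 154 CPM (92.9 to 241), next to 212 CPM (164 to 271) in PyMT lymphocytes. A UMI of S100a4 was found in 33.8% of Met-1 fibroblasts.

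A progenitor-like fraction held most of that S100a4. Met-1 fibroblasts were split by Pi16, Dpp4 and Clec3b, genes of fibroblast progenitors in the connective tissue around vessels and organs, against the matrix genes Cilp, Thbs4 and Tnc. The 55 progenitor cells had S100a4 at 218 CPM against 19.7 CPM in the 84 matrix cells, 11.1-fold (7.58 to 16.8), and S100a10 at 1844 against 177 CPM, 10.4-fold (9.18 to 11.9). A single progenitor cell held 78 of the 255 S100a4 UMIs of Met-1 fibroblasts, and without the top cell of each subset S100a4 was 7.04-fold (4.57 to 11.2) higher. S100a13 (2.11-fold, 1.87 to 2.37), S100a16 (2.13-fold, 1.87 to 2.42) and S100a6 (1.5-fold, 1.45 to 1.55) were higher there too, S100a11 was level (0.964, 0.901 to 1.03), and S100a1 was lower (0.379, 0.237 to 0.584). Of the other Met-1 fibroblasts 64 were undecided and 4 carried Gdf10 and Cxcl14. The 11 PyMT fibroblasts resembled the Met-1 progenitor cells in S100a10 (1965 CPM, ratio 1.07, 0.926 to 1.22), with 1.82-fold (1.5 to 2.20) their S100a16; 6 of the 11 were progenitor cells by the same rule and 0 were matrix cells.

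**Figure D3:**
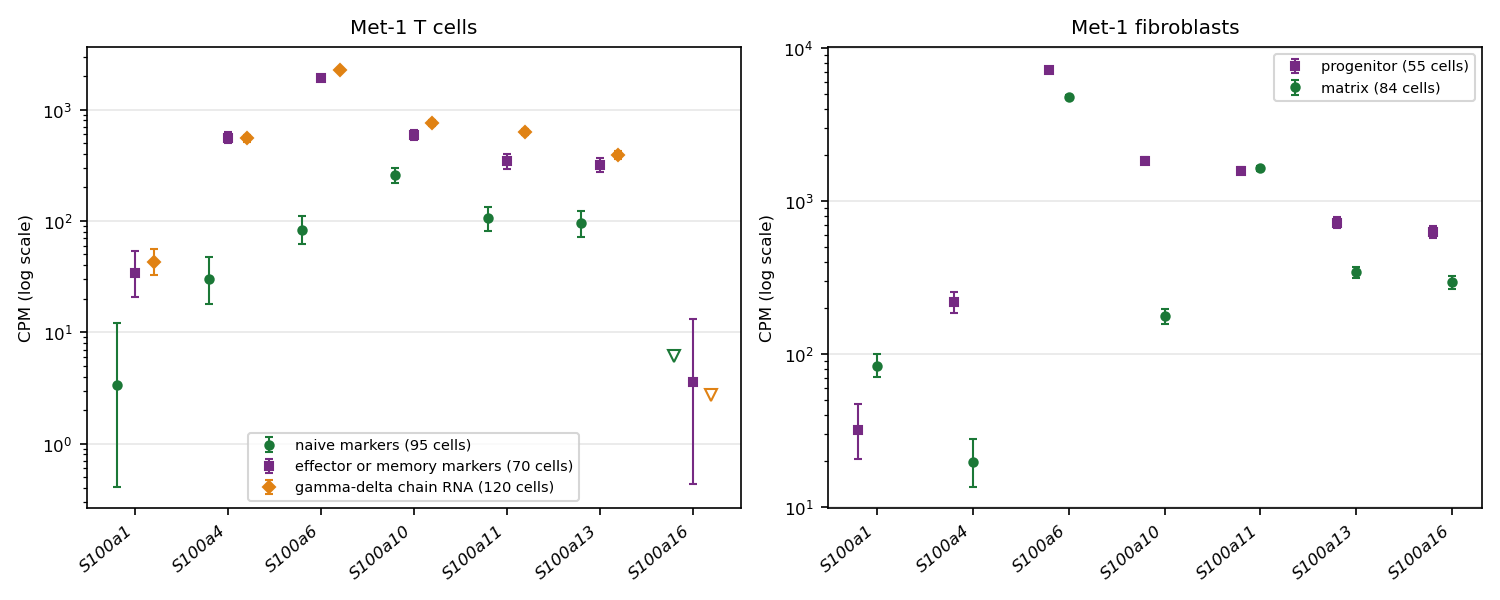
Level of 7 members (CPM, log axis, 95% counting intervals) in subsets of Met-1 T cells (left: 95 with naive, 70 with effector or memory markers, 120 with gamma-delta chains) and of Met-1 fibroblasts (right: 55 progenitor, 84 matrix); an open triangle marks 0 UMIs. S100a4 and S100a6 are lowest in T cells with naive markers, and S100a4 and S100a10 are more than 10-fold higher in progenitor than in matrix fibroblasts.

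Luminal cells were marked by S100a1, a member best known from muscle, with a level of 180 CPM (149 to 217) in the transplant and 165 CPM (144 to 187) in the PyMT tumour. It was 2.41-fold (1.92 to 3.01) above the next class in Met-1, the fibroblasts, and 2.55-fold (2.02 to 3.24) above macrophages in PyMT; with 50 instead of 10 CPM added, neither remained a mark (1.85- and 1.87-fold). S100a11 (790 and 939 CPM), S100a6 (598 and 1002 CPM) and S100a10 (253 and 581 CPM) were the most abundant members in luminal cells when S100a8 is set aside. S100a8 was at 962 CPM (887 to 1042) in Met-1 luminal cells, but 582 of its 608 UMIs were in 1 cell of 33794 UMIs, which had 0 UMIs of S100a9, 0 of the neutrophil gate genes, 174 of the luminal markers and 11 of the macrophage markers. Without the top cell the level was 43.5 CPM.

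UMIs of S100a8 or S100a9 were also found in each of the other 6 Met-1 and 5 PyMT classes described above. Droplets can take up free RNA released by other cells, so the background is read from T, natural killer and B cells, which are not known to make calprotectin. In Met-1 the 2 genes together were at 9.48 CPM (6.08 to 14.1) in T cells, 10.1 CPM (5.22 to 17.6) in natural killer cells and 15.7 CPM (8.57 to 26.3) in B cells. In PyMT they were at 65.3 CPM (35.7 to 110) in T cells and 107 CPM (43.1 to 221) in B cells. No lymphocyte of either library had as many as 10 UMIs of the pair, and the most in the 3 richest PyMT lymphocytes together was 8. The intervals of the lymphocyte kinds overlapped within each library, while lymphocytes as a whole stood at 10.8 CPM (8.10 to 14.1) in the Met-1 library against 81.7 CPM (52.9 to 121) in the PyMT library, as the whole-library levels of the pair were 640 and 5400.0 CPM.

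A few macrophages and luminal cells held many of the UMIs of the pair, and the levels are given without them too. The cells were set aside for having 10 or more UMIs of the pair, a limit chosen after seeing the data, so the lower level that results follows from the choice. The remaining 818 Met-1 macrophages were at 11.4 CPM (9 to 14.2), fibroblasts at 6.34 CPM (3.97 to 9.60), mural cells at 12.8 CPM (7.01 to 21.5) and 32 luminal cells at 27.7 CPM (15.5 to 45.7). In PyMT the macrophages were at 110 CPM (94.3 to 127), fibroblasts at 89.3 CPM (44.6 to 160) and luminal cells at 140 CPM (121 to 161). The interval of the Met-1 luminal cells lay above that of the Met-1 lymphocytes, and in PyMT the 2 intervals met at 121 CPM. These levels came to between 0.991% and 4.33% of the pair's level in the whole Met-1 library and between 1.65% and 2.59% in the PyMT library. In PyMT S100a9 over S100a8 was 0.895 (0.660 to 1.21) in these macrophages and 0.652 (0.481 to 0.880) in luminal cells, overlapping the 0.716 of neutrophils; in the Met-1 luminal cells it was 0.0714 (0.00169 to 0.470), with 14 UMIs of S100a8 and 1 of S100a9, below the neutrophils' 1.19.

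The cells left out were few. Among Met-1 macrophages 3 cells held 497 of the 576 UMIs of the pair, and 1 of these had 170 of S100a8 and 274 of S100a9 beside 84 UMIs of 6 further neutrophil genes (Retnlg, Wfdc21, Stfa2l1, BC100530, Mmp8 and Asprv1). Among PyMT macrophages 3 cells held 250 of 430, of which 1 had 128 of S100a8 and 95 of S100a9 beside 32 UMIs of those genes. Summed, those 6 genes reached 7147 CPM in the Met-1 and 6473 CPM in the PyMT neutrophils, but were at 14.7 and 27.5 CPM in macrophages and at 1.60 and 19.6 CPM in lymphocytes. In luminal cells they were at 38.0 and 22.1 CPM. The Met-1 luminal UMIs were 19 of Asprv1 and 5 of BC100530, with 0 of Retnlg, Wfdc21, Stfa2l1 and Mmp8. The share of lymphocytes with a UMI of S100a8 or S100a9 was 7.12% in Met-1 and 25.7% in PyMT, and 1.16% (0.503 to 2.28) and 2.70% (0.329 to 9.42) after each cell was thinned to 500 UMIs; of neutrophils, all 35 Met-1 cells and 94.0% of PyMT cells kept a UMI after thinning.

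**Figure D4:**
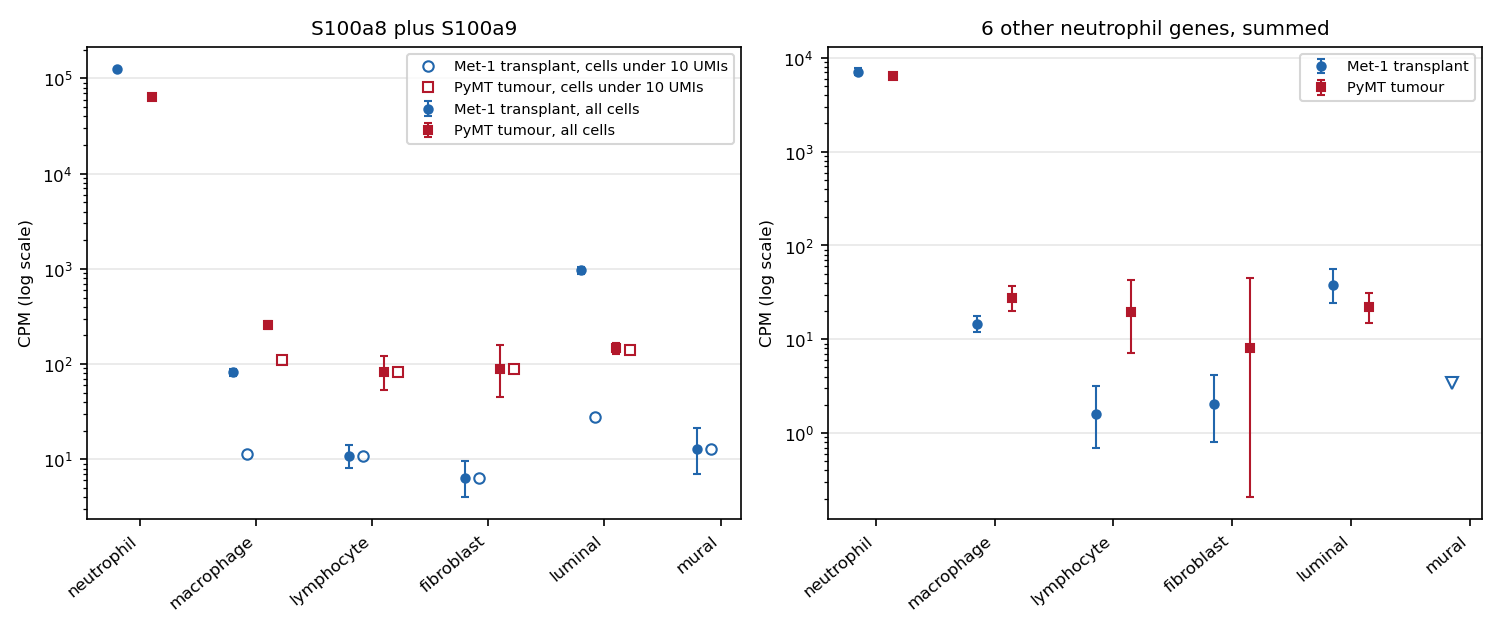
Left: S100a8 plus S100a9 (CPM, log axis) by class in all cells (filled, with 95% counting intervals) and in cells with under 10 UMIs of the pair (open); right: the sum of 6 other neutrophil genes, with an open triangle at 0 UMIs. Outside the neutrophils the open points lie between 6.34 and 27.7 CPM in Met-1 and between 81.7 and 140 CPM in PyMT.

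Between the tumours, members were compared within 4 classes, with a difference counted at 2-fold of (CPM + 10) among genes with at least 50 UMIs in a library. In macrophages 8 members could be compared and 6 were at least 2-fold lower in Met-1, against 1.28% of 8362 genes; none was higher, where 5.43% of genes were (6.71% in either direction). The median log2 ratio of Met-1 over PyMT was -1.14 for the 8 and 0.15 for all genes. S100a4 was at 34.3 CPM in the Met-1 and 114 CPM in the PyMT macrophages, a PyMT over Met-1 ratio of 3.33 (2.74 to 4.04), most of its UMIs lying in the 7 and 6 cells named above. S100a10 had a ratio of 3.09 (2.55 to 3.73), S100a6 of 2.30 (2.03 to 2.60) and S100a11 of 2.27 (1.94 to 2.64). S100a8 and S100a9 had pooled ratios of 3.95 (3.29 to 4.73) and 2.5 (2.08 to 3), with most of the pair's UMIs in few cells. Of the pair's UMIs, 3 Met-1 macrophages held 497 of 576 and 3 PyMT macrophages 250 of 430. With these cells set aside as above, the pair's level was 11.4 CPM (9 to 14.2) for Met-1 against 110 CPM (94.3 to 127) for PyMT macrophages. The free level in lymphocytes, 10.8 against 81.7 CPM, was also lower for Met-1, and its part in the difference was not tested. Within the macrophages over 100 C1q UMIs per 10000, which were 641 cells in Met-1 and 165 in PyMT, the ratios were 3.22 (2.15 to 4.78) for S100a4, 2.22 (1.65 to 2.96) for S100a10, 2.64 (2.20 to 3.16) for S100a6 and 1.82 (1.49 to 2.22) for S100a11. For S100a8 and S100a9 the PyMT over Met-1 ratios in the same macrophages were 11.93 (7.81 to 18.7) and 10.99 (7.15 to 17.3). The levels in these macrophages were low. For comparison, in B cells of the PyMT library S100a4 had 0 UMIs, under 45.9 CPM by a limit of 3 counts. S100a6 had 2 UMIs there (30.6 CPM, 3.71 to 111). The PyMT macrophages over 100 were at 34.3 and 144 CPM of these 2 genes. In Met-1 the B cells were at 12.3 and 102 CPM, against 10.7 and 54.8 CPM in the macrophages over 100. Whether free RNA had a part in these levels was not tested. With 50 CPM added in place of 10, 5 of the 6 differences fell short of 2-fold, all but that of S100a8, as did those of S100a6 and S100a11 without the doublet caller, that of S100a6 with a 95% share of marker UMIs, and those of S100a6 and S100a9 by the mean of per-cell CPM.

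In neutrophils 4 members could be compared, and S100a9 alone passed, 2.54-fold (2.45 to 2.62) higher in Met-1, where 5.18% of 850 genes were higher and 19.8% lower (24.9% in all). S100a8 was 1.53-fold (1.48 to 1.58) and S100a6 1.89-fold (1.62 to 2.20) higher, and S100a11 was level at 0.957 (0.835 to 1.09). In lymphocytes none of the 6 members compared reached 2-fold, while 8.11% of 7230 genes were higher in Met-1, 2.02% lower and 10.1% either. S100a4 was 1.70-fold (1.33 to 2.21) and S100a6 1.51-fold (1.36 to 1.68) higher in Met-1, and S100a10, S100a11 and S100a13 lay between 0.956 and 1.09. The makeup differed, B cells being 242 of 688 Met-1 and 30 of 74 PyMT lymphocytes. Natural killer cells, which had the most S100a6 of the Met-1 lymphocytes, were 117 in Met-1 and 4 in PyMT. In T cells alone none of 6 members reached 2-fold either, where 13.1% of 5095 genes did (10% higher in Met-1, 3.04% lower); the ratio was 1.42 (1.11 to 1.86) for S100a4 and 1.22 (1.08 to 1.38) for S100a6.

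In luminal cells 8 members were compared. S100a10 was 2.30-fold (1.94 to 2.74) higher in PyMT, where 8.03% of 3908 genes were lower in Met-1 by that line and 13.2% differed either way. S100a9 was also called lower, with 1 UMI in the Met-1 against 79 in the PyMT cells (1.58 and 56.3 CPM), beside 7.18 and 29.4 CPM in the lymphocytes; with a 95% share of marker UMIs it no longer had 50 UMIs and the call was lost. S100a8 was 10.6-fold (8.77 to 13) higher in Met-1, where 5.19% of genes were, but rested on the single cell described above; without the top cell it was lower in Met-1, at a log2 ratio of -0.82. S100a6 (ratio 0.597, 0.531 to 0.669) and S100a11 (0.841, 0.757 to 0.933) were lower in Met-1, and S100a1, S100a13 and S100a16 were each within 1.18-fold with intervals that held 1.

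**Figure D5:**
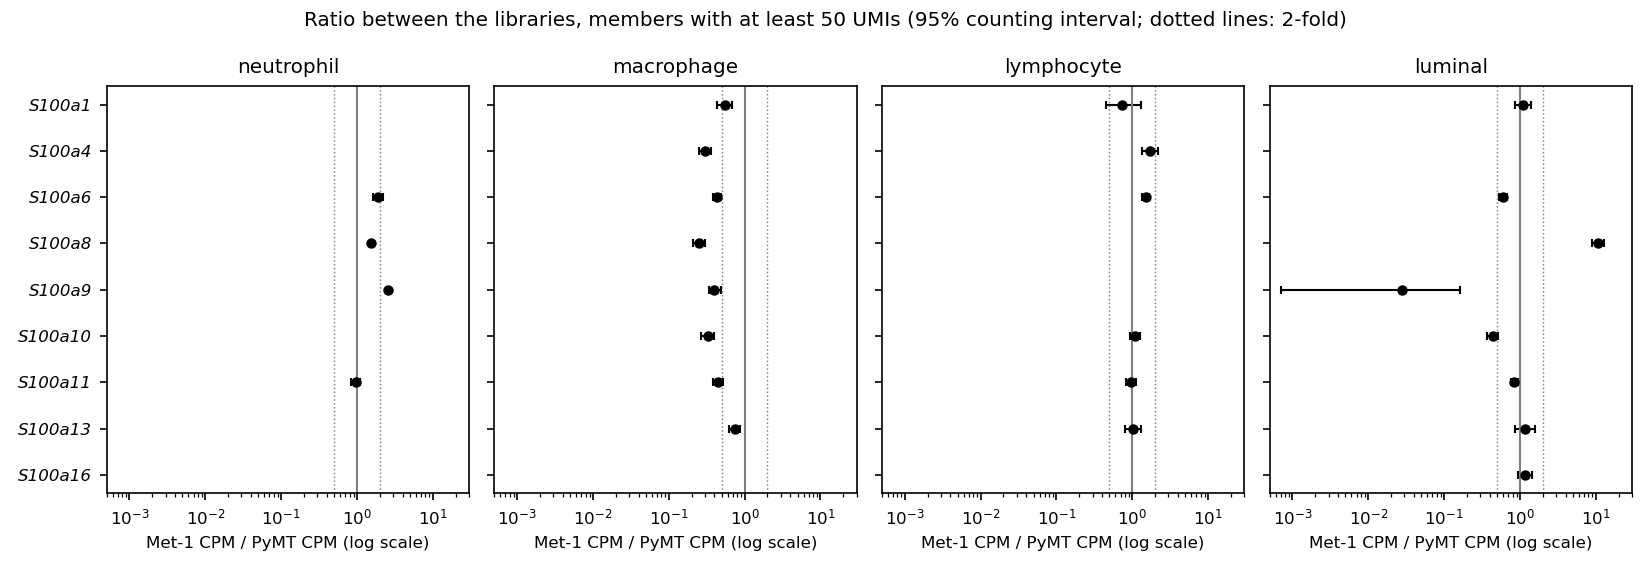
Ratio of Met-1 over PyMT CPM (log axis, 95% counting intervals) for the members with at least 50 UMIs in a library, in 4 cell classes; the solid line marks equality and the dotted lines 2-fold. In macrophages all 8 points lie below 1, whereas in lymphocytes S100a10, S100a11 and S100a13 sit on it.

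Related genes were counted by the same rules and are read against the same background shares. Of 6 receptors of calprotectin or its complexes, 5 had at least 50 UMIs; RAGE itself (Ager) was at or under 3.66 CPM in every class. Cd14, the coreceptor of TLR4, reached 2809.5 and 2561 CPM in neutrophils of the Met-1 and the PyMT tumour and 1633 and 1499 CPM in their macrophages, and Tlr4 was at 33.7 and 27.5 CPM in neutrophils. Cd36, a scavenger receptor, marked macrophages in both libraries (67.2 and 32.8 CPM), and Bsg, which encodes basigin, marked luminal cells in PyMT (1021 CPM).

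Of 8 binding partners, all with at least 50 UMIs, none marked a class in Met-1, and in PyMT Anxa2 marked neutrophils and Ahnak luminal cells. Anxa2, the partner of S100a10, reached 731 CPM in the Met-1 and 749 CPM in the PyMT neutrophils, in which S100a10 had 0 and 2 UMIs. Anxa2 was at 6.72 CPM in Met-1 B cells, which held S100a10 at 259 CPM, so the levels of the 2 partners were unequal in both directions. Ahnak, a scaffold bound by that complex, was at 0 and 3.44 CPM in neutrophils, and Anxa5 at 0 and 34.4 CPM.

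Of 6 neutrophil granule genes, Mmp8 and Mmp9 marked neutrophils in PyMT (244 and 364 CPM; Mmp9 is a gate gene), and Lcn2 and Ltf marked luminal cells in both libraries. Lcn2, an iron-carrier binding protein that mammary epithelium also makes, reached 9977 and 8664 CPM in luminal cells of the Met-1 and the PyMT tumour and 517 and 1385 CPM in their neutrophils. Camp had 0 UMIs in every class, and Ngp, a gene of neutrophil precursors in the marrow, had 0 UMIs in the Met-1 and 96.3 CPM in the PyMT neutrophils. All 28 UMIs of Ngp in PyMT neutrophils were in the 83 cells richer in S100a8 and S100a9. The 8 other S100 and S100-related genes had 417 UMIs in Met-1 and 167 in PyMT in all; of these S100a14, an epithelial member, marked luminal cells in PyMT (37.0 CPM, 27.7 to 48.6).

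By likeness of profile over the 14 class-by-library sums, with 3807 genes compared, S100a9 was nearest to Retnlg (Pearson's r 0.989), Acod1 (0.973) and the gate gene Cxcr2 (0.973), and S100a8 to Asprv1 (0.965), Entpd3 (0.945) and Il1rap (0.934). S100a16 was nearest to Fkbp11 (0.984) and Ghr (0.982), and S100a6 to Myl6 (0.910), Anxa2 (0.894) and Elob (0.890). S100a10 was nearest to Psmb1 (0.944), S100a1 to Cops9 (0.923), S100a11 to Gnai3 (0.920), S100a4 to Tmem160 (0.913) and S100a13 to Rwdd1 (0.908). The profiles share 2 libraries and differ in depth, and no p is attached to these values.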

How the data were processed

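The authors deposited a matrix of whole-number UMI counts; the submitters' processing notes name Cell Ranger 3.1.0 and mm10, and how barcodes were called as cells was not given in the sources used here. Barcodes were kept with at least 500 UMIs, 200 genes and at most 10% of UMIs in 13 mitochondrial genes, and Scrublet (scanpy 1.11.5) calls were removed at its automatic threshold (25 in Met-1, 1 in PyMT; expected rate 0.8% per 1000 barcodes). A class needed 3 UMIs over 2 of its markers and 80% of the marker UMIs of all passing classes. Macrophages had at least 10 C1q UMIs per 10000; monocytes at most 2, and at least 2 UMIs of monocyte markers. Barcodes passing no class (55 and 32) or several (142 and 29) entered none. CPM has exact Poisson intervals, ratios exact conditional binomial intervals and shares Clopper-Pearson intervals. Members and lists were chosen with earlier results of these data known. Named genes are the 9 members, list genes with at least 50 UMIs, and up to 3 genes most like each member among those reaching 100 CPM. Sequences are from RefSeq (GRCm38.p6), gene positions from GENCODE's mouse annotation. The ratio step was tested on simulated data. Python 3.11.15, numpy 2.4.6, scipy 1.17.1 and pandas 2.3.3 were used. A marker of the naive T-cell list and a gene among those most like S100a16 are not reported here, and the T-cell subsets were computed without that marker.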

Additional observations from a re-analysis of the deposited data

Results flagged for a closer look

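The differences named here were not tested, since each tumour has 1 library. The balance of the calprotectin pair differed between the tumours, S100a9 over S100a8 being 1.19 in Met-1 and 0.716 in PyMT neutrophils. The order of macrophages and luminal cells for S100a8 was opposite, with a log2 ratio of macrophages over luminal cells of -4.41 in Met-1, where 1 luminal cell held 582 of 608 UMIs, and 0.59 in PyMT. For S100a10 the log2 ratio of lymphocytes over luminal cells was 1.25 in Met-1 and -0.03 in PyMT.

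S100a8 and S100a9 were also found in barcodes that entered no class. Those that passed several gates held the pair at 122 CPM in the Met-1 library against 7787 CPM in the PyMT library, and those that passed none at 16159.5 CPM in PyMT. Barcodes over 10% mitochondrial UMIs held it at 40.8 CPM (316 Met-1 barcodes) and 12517 CPM (27 PyMT barcodes). The first of these values rested on 1 barcode, which held 208 of 236 UMIs; without it the Met-1 barcodes that passed several gates were at 14.5 CPM (9.65 to 21.0), their interval overlapping that of the Met-1 lymphocytes (8.10 to 14.1). In PyMT the top barcode held 1762 of 3162 UMIs among those that passed several gates, and the others were at 3487 CPM; among those that passed none it held 288 of 710, and the others were at 9989 CPM. The 55 Met-1 barcodes that passed no gate had 3 UMIs of the pair (20.4 CPM). Many of the PyMT barcodes also carried neutrophil gate genes. Among those with 10 or more UMIs of the pair, the ones passing several gates had 9 to 33 UMIs of these genes. The ones passing none had 1 or 2, under the 3 that a gate needs.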

How the results depend on the processing

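No paired analysis was possible because each group has 1 library, and for the same reason no replicate could be left out. The 11 marking calls came to between 8 and 12 under the alternatives other than a 4-fold line, which left 6. The 10 calls between tumours came to between 8 and 14 under the alternatives other than 50 CPM added, which left 5, and a 4-fold line, which left 2. The number of member levels of at least 100 CPM, 48 of 90, ranged from 42 to 49. Single levels moved more. By the mean of per-cell CPM 38 of the 90 fell outside their counting interval. Without the top cell of the gene in each class 30 did, and with a 95% share of marker UMIs 27 did. Under the other alternatives run for levels, between 0 and 7 did. The one direction that turned was that of S100a8 in luminal cells, whose log2 ratio of Met-1 over PyMT was 3.27 and became -0.53 with a mitochondrial limit of 5%, -1.27 with a 95% share of marker UMIs, -0.82 without the top cell and, in an alternative added after seeing the data, -1.40 without cells of 10 or more UMIs of the pair. The free level in lymphocytes kept within its counting interval under the alternatives run for it (10.1 to 11.2 CPM in Met-1, 81.7 to 83.7 CPM in PyMT). Cell number limits the 2 PyMT monocytes and 11 PyMT fibroblasts, which did not enter the main calls. Depth limits the Met-1 neutrophils, which held 88985 UMIs.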
